A study of Saccharomyces cerevisiae with 12 samples.

Results

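The heat shock protein genes examined here were 9 yeast genes, HSP12, HSP26, HSP42, HSP104, HSP82, HSC82, SSA1, SSA2 and SSA4, of 5840 protein-coding genes outside chromosome III. They were chosen by name. For each gene, protein-linked DNA ends were counted in the reading frame, in the 700 bp upstream of the start codon and in the 500 bp past the stop codon, giving 27 windows. The ends came from CC-seq, which recovers DNA covalently bound to protein and places every bound 5′ end (a hit) on the strand and base where it lies. There were 12 libraries from budding yeast of the BY4741 background in rich medium (YPD) at 30 °C. All strains carried a fusion of the Pdr1 DNA-binding domain to the repressor Cyc8, which sensitises cells to drugs, either alone (pdr1) or with SAE2 (pdr1sae2) or MRE11 (pdr1mre11) deleted. Each strain was given 1 mM VP16 (etoposide) for 4 h or was labelled untreated, which per the study's methods meant 2% DMSO, with 2 biological replicates in each of the 6 groups. No group was heat shocked.

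Top2 passes a DNA duplex through a transient break, with a Top2 subunit joined to the 5′ end of each cut strand, and so relieves the supercoils made by transcription. VP16 holds Top2 on the DNA it has cut. Heat shock proteins are chaperones and disaggregases that keep other proteins folded. In yeast, Hsf1 binds heat shock elements, built of alternating GAA and TTC units, in chaperone promoters, and Msn2 and Msn4 bind the stress response element CCCCT in promoters of general stress genes. HSC82 and SSA2 are expressed constitutively, while HSP26 and SSA4 are kept low until stress.

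Libraries held 685100 to 3463679 nuclear hits, and the 4 shallowest included the 3 untreated replicate 2 libraries. Levels are given as HpM per kb, where HpM is hits per 1000000 nuclear hits of the library. They are shares of a library and hold no information on total signal. In the VP16 libraries C, the base this drug is known to favour 5′ of the cut, preceded 46.8 to 65.6% of hits in the 27 windows, against 21 to 23.2% in untreated libraries. As a check of the labels, an interval of 500 bp in SAE2 held 1 to 6 hits in pdr1sae2 and 20 to 164 elsewhere, and the MRE11 frame held 5 to 36 hits in pdr1mre11 and 106 to 424 elsewhere.

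With VP16, hits gathered on both sides of most of the heat shock genes and in several of their reading frames. Upstream windows rose in 8 of 9 genes and fell in 0, while 57.4% of all 5790 upstream windows rose and 10.4% fell. Past the stop codon 8 of 9 windows rose and 0 fell, against 44.1% and 18.9% of 5732. Among reading frames 5 of 9 rose (HSP26, HSC82, SSA1, SSA2 and SSA4) and 1 fell (HSP42), against 13.7% and 53.9% of 5703. The median log2 change of the 9 genes was 0.60 upstream, 0.24 in the reading frame and 0.87 past the stop codon, beside 0.34, -0.29 and 0.21 over all windows. A window was called at an adjusted p under 0.05 in edgeR's quasi-likelihood test with strain as a term, Benjamini-Hochberg adjusted over 17225 windows. These are changes in share. With the deposited spike-in factors as the scale, the median log2 change of all reading frames was 1.13, and 99.9% of called frames were higher, against 20.3%. Both replicates of a group share 1 factor, so calls on that scale take it as exact and are no test of the calibrated levels.

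**Figure D1:**
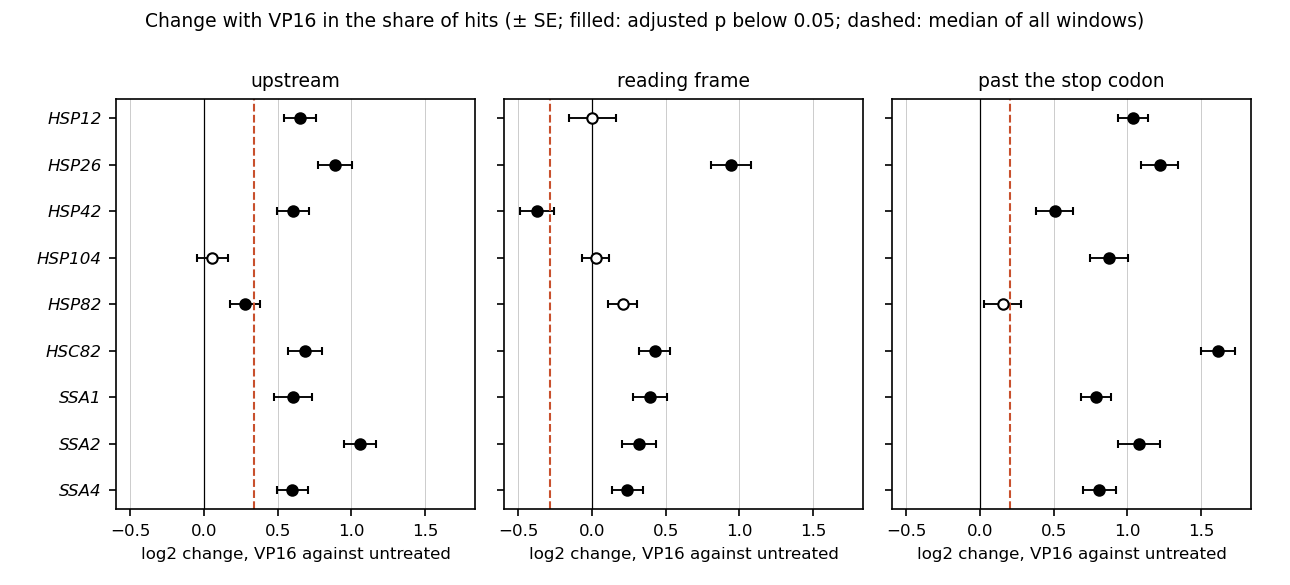
Log2 change in the share of hits with VP16 against untreated (horizontal axis) for the 9 genes in each kind of window, ± SE from the fit over 12 libraries, with filled points past an adjusted p of 0.05 and a dashed line at the median of all windows of that kind. HSC82 past the stop codon lies farthest right at 1.61, and HSP42 is the reading frame called below 0, at -0.37 in share.

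Hsp12 is a small membrane-associated stress protein, and Hsp26 and Hsp42 are small heat shock proteins that hold misfolded proteins in assemblies. HSP26 (chrII:382030-382674, R64 coordinates here and below) rose in all 3 windows. Its reading frame had 77.3, 108 and 112 HpM per kb (lowest, median and highest of 6 libraries) when untreated and 129.6, 205 and 296 with VP16. The groups did not overlap, and the highest values were those of pdr1mre11 with VP16. The log2 change was 0.94 ± 0.14 (SE, adjusted p = 1.22e-06), above that of 98% of reading frames. Upstream, HSP26 went from a median of 92.6 to 154 (log2 change 0.89 ± 0.11, adjusted p = 1.38e-07). Past its stop codon, where the window also holds 162 bp of YBR072C-A and 63 bp of RDH54, it went from 93.7 to 219.8 (1.22 ± 0.12, adjusted p = 3.84e-09). Neither pair of groups overlapped.

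HSP12 (chrVI:107256-107585) rose on both flanks, and the call in its reading frame depended on how hits were counted. Upstream it went from a median of 92.8 to 154 HpM per kb (log2 change 0.65 ± 0.11, adjusted p = 1.04e-05). Of that window 408 bp belong to YFL015C, and in the 292 bp before it the log2 change was 1.05 (adjusted p = 7.59e-07). Past the stop codon, with 234 bp of IES1 in the window, HSP12 went from 90.4 to 189.7 (1.03 ± 0.10, adjusted p = 2.16e-09). The groups did not overlap on either flank. The reading frame had 122, 136 and 308 when untreated and 149.6, 185 and 201 with VP16, a log2 change of 0.00 ± 0.16 (adjusted p = 0.998). The overlap came from untreated pdr1mre11 replicate 1 at 308 and untreated pdr1sae2 replicate 1 at 192. With each position counted once per library the frame rose, by 0.34 (adjusted p = 0.0128). A single site held many of the untreated hits and is described with the sites.

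HSP42 (chrIV:806621-807748) was higher on both flanks and lower in the reading frame. Its frame had 68.8, 96.8 and 103 HpM per kb when untreated and 56.8, 75.7 and 89 with VP16. The groups overlapped, though 4 of 6 untreated libraries lay above every VP16 library. The log2 change in share was -0.37 ± 0.11 (adjusted p = 0.00516), and it was 1.05 on the spike-in scale, on which the median of all reading frames was 1.13. Counting each hit position once per library gave -0.18 (adjusted p = 0.15). Upstream, where no other gene is annotated, HSP42 rose from a median of 85.4 to 133 without overlap (0.60 ± 0.11, adjusted p = 3.22e-05). Downstream of the stop codon it rose from 130.3 to 196 with overlapping groups (0.51 ± 0.12, adjusted p = 0.0008).

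Hsp104 is the disaggregase that, with Hsp70, pulls proteins out of aggregates. In HSP104 (chrXII:88623-91349) the window past the stop codon passed the test and the others did not. There it had 67.1, 84.3 and 118 HpM per kb when untreated and 143, 159 and 205 with VP16. The groups stood apart (log2 change 0.87 ± 0.13, adjusted p = 1.37e-06). Upstream, HSP104 had 76.2, 87.7 and 99.1 when untreated and 77.1, 90.2 and 107 with VP16, with wide overlap (0.05 ± 0.11, adjusted p = 0.663). That window includes 233 bp of ISA1. Without them the log2 change was 0.30 (adjusted p = 0.0454), and in the nearest 400 bp it was 0.42 (adjusted p = 0.00593). The reading frame of HSP104 had medians of 104 and 113 (0.02 ± 0.09, adjusted p = 0.829).

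**Figure D2:**
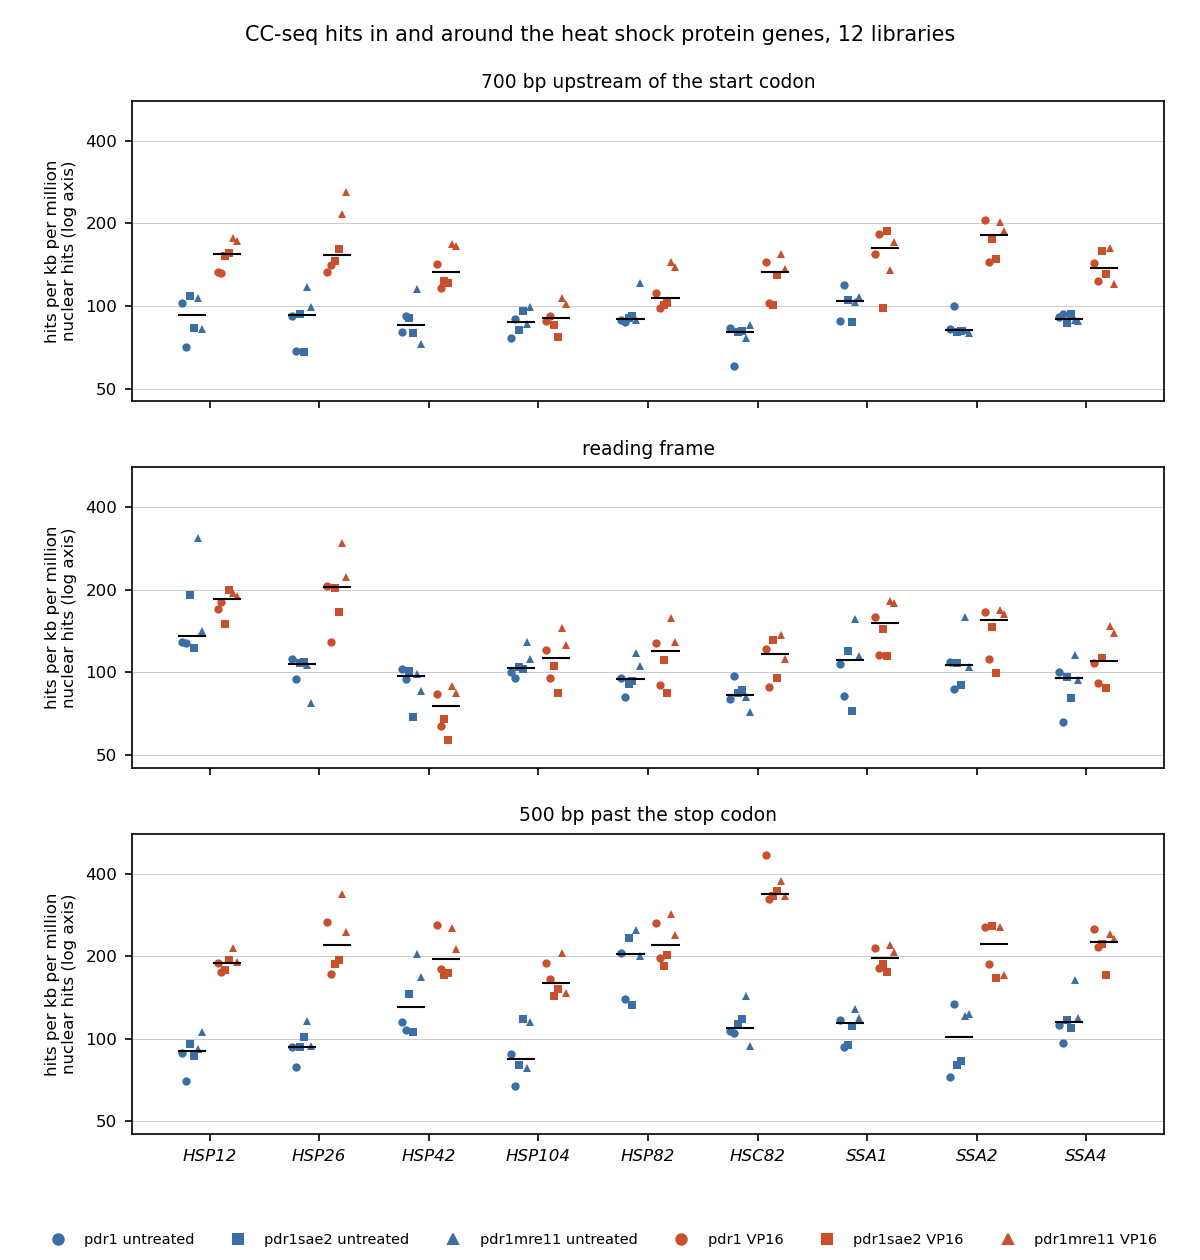
HpM per kb (log axis) in the 3 windows of each gene, 1 point per library, with symbols for strain, colours for treatment and a bar at the median of 6 libraries. Past the stop codon of HSC82 the VP16 libraries sit at 323 to 468, above untreated libraries at 93.8 to 143.

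HSP82 and HSC82 encode the nearly identical Hsp90 chaperones, HSC82 being the constitutive gene and HSP82 the more heat-inducible one. HSC82 (chrXIII:632355-634472) held the largest change of the 27 windows. Past its stop codon it had 93.8, 109.8 and 143 HpM per kb when untreated and 323, 338 and 468 with VP16. The groups were far apart, and pdr1 with VP16 replicate 1 was highest. The change was 3.06-fold (log2 1.61 ± 0.12, adjusted p = 9.6e-12), above 99.5% of windows of this kind. In the 216 bp before YMR187C the log2 change was 1.66, and with each position counted once it was 0.93 (adjusted p = 2.12e-08). Upstream, HSC82 went from a median of 80.7 to 133 (0.69 ± 0.11, adjusted p = 8.69e-06), and without the 316 bp of RTP1 the log2 change was 1.31 (adjusted p = 1.32e-08). With each position counted once the upstream change was 0.16 (adjusted p = 0.156). The HSC82 reading frame rose from 82.5 to 117 (0.43 ± 0.10, adjusted p = 0.000849).

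HSP82 (chrXVI:96496-98625) was called in its upstream window alone with all hits counted. Upstream it had 87.6, 89.9 and 121 HpM per kb when untreated and 98.2, 107 and 145 with VP16 (log2 change 0.28 ± 0.10, adjusted p = 0.0214). The overlap came from untreated pdr1mre11 replicate 2, the highest untreated library. The call was lost without untreated pdr1mre11 replicate 1 (0.18, adjusted p = 0.155), in the DESeq2 Wald test (0.18, adjusted p = 0.166) and with TMM factors from the windows (0.19, adjusted p = 0.0992). In the HSP82 frame the medians were 94.3 and 119.5 (0.21 ± 0.10, adjusted p = 0.0696), and it passed without pdr1 with VP16 replicate 2 (adjusted p = 0.0203) or pdr1sae2 with VP16 replicate 2 (adjusted p = 0.0174). Beyond its stop codon HSP82 was already high in untreated libraries, with 133, 204 and 250.0, and had 184, 220.2 and 286 with VP16 (0.15 ± 0.12, adjusted p = 0.279). A single site held many of the hits in untreated replicate 1 and is described with the sites. In the 237 bp before CIN2 the log2 change was -0.26 (adjusted p = 0.103). With each position counted once the full window rose, by 0.46 (adjusted p = 0.00028). Without untreated pdr1sae2 replicate 1 it passed as well (0.29, adjusted p = 0.0387). The difference between the Hsp90 genes was not tested.

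SSA1, SSA2 and SSA4 encode cytosolic Hsp70 chaperones, of which SSA4 is induced by stress. SSA2 (chrXII:95566-97485) had the largest change of the 9 genes in the 700 bp upstream, from 79.6, 81.7 and 100.1 HpM per kb when untreated to 144, 182 and 206 with VP16. The groups were well apart (log2 change 1.06 ± 0.11, adjusted p = 5.05e-09), and 189 bp of the window belong to POM33. Windows cut at neighbouring frames gave 1.18 in SSA2 and 1.31 in HSC82, and the nearest 200 bp 1.37 and 1.94. Past the stop codon, with 56 bp of PAU17 in the window, SSA2 went from a median of 102 to 221 (1.08 ± 0.14, adjusted p = 3.11e-07). Its reading frame went from 106 to 155 with overlapping groups (0.32 ± 0.11, adjusted p = 0.016). This call ended without pdr1 with VP16 replicate 1, pdr1sae2 with VP16 replicate 1 or untreated pdr1mre11 replicate 2 (adjusted p = 0.0758, 0.0598 and 0.0528).

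SSA4 (chrV:364589-366517) had even untreated levels upstream, at 86.8, 89.9 and 93.8 HpM per kb, and 121, 137 and 163 with VP16. The groups did not overlap (log2 change 0.60 ± 0.10, adjusted p = 1.39e-05). Beyond the stop codon, with 216 bp of RTT105 in the window, SSA4 went from a median of 115 to 226 (0.81 ± 0.11, adjusted p = 5.56e-07). Its reading frame changed by 0.24 ± 0.10 (adjusted p = 0.0438), a call that ended in 8 of 12 fits with a library left out. Those were both untreated pdr1mre11 libraries, both pdr1mre11 libraries with VP16, untreated pdr1 and pdr1sae2 replicate 2, and pdr1 and pdr1sae2 with VP16 replicate 1, and over all 12 the log2 change ran from 0.19 to 0.33. SSA1 (chrI:139503-141431) went from a median of 114 to 198 past the stop codon (0.79 ± 0.10, adjusted p = 1.33e-07), where the transfer RNA gene TRN1 takes up 103 bp. In the SSA1 frame the medians were 111 and 152 (0.39 ± 0.11, adjusted p = 0.00352). Upstream, SSA1 had 87.3, 104 and 119 when untreated and 98.5, 163 and 187 with VP16 (0.60 ± 0.13, adjusted p = 0.000191). The overlap came from pdr1sae2 with VP16 replicate 1. In the nearest 200 bp the SSA1 log2 change was -0.78 (adjusted p = 0.000454), so the rise lay farther upstream.

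Reads of paralogues can be exchanged where their sequences match. The 42 bases read from a 5′ end, the shorter read length of the study, occurred again in the genome at 58.6% of strand positions in the SSA1 frame and 58.9% in SSA2, and at 8.97% and 9.02% in HSP82 and HSC82. No upstream window held such positions. They made up 12.8% of the window past the SSA1 stop codon and 0.1% of that past SSA2. Shared positions held 57% of untreated and 53.6% of VP16 hits in the SSA1 frame, and 62.2% and 55.7% in SSA2. Hits there cannot be assigned to 1 gene with certainty. With unshared ends alone the frame changed by 0.45 ± 0.11 in SSA1 (adjusted p = 0.00065) and by 0.51 ± 0.12 in SSA2 (adjusted p = 0.000623). The changes were 0.19 ± 0.10 in HSP82 (adjusted p = 0.0871) and 0.41 ± 0.11 in HSC82 (adjusted p = 0.00126).

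Within the windows, VP16 hits lay at different distances in different genes. Of 63 upstream bins of 100 bp, all 6 VP16 libraries exceeded all 6 untreated ones in 17, and the reverse held in 1, against 16.6% and 4.72% of such bins over all genes. Of 45 bins past the stop codon 20 were separated upward (13.8% over all genes), of which 15 lay among the 27 bins from 100 to 400 bp past it (16.4%). Neighbouring bins of a gene are not independent. In HSC82 the bin from -200 to -100 bp relative to the start codon went from a median of 56.6 to 276 HpM per kb. The HSC82 bin from -600 to -500 bp, which lies inside the RTP1 frame, was the one lower in every VP16 library, at 83.6 and 30.5. The HSC82 bin from 100 to 200 bp past the stop codon reached 615 to 1150.2 with VP16, against 82.8 to 410.0. SSA1 had its high upstream bins far from its start codon. Whether they belong to the promoter of a neighbour beyond the window was not tested. Its bin from -600 to -500 bp had 139.7 to 439.6 with VP16 and 69.6 to 137 when untreated, while in the last 100 bp before the start codon the medians were 77.8 with VP16 and 133 when untreated.

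In the 200 bp before the start codon the genes went in opposite directions. SSA1 fell (log2 change -0.78, adjusted p = 0.000454), as did SSA4 (-0.68, adjusted p = 0.0082). HSC82 rose by 1.94 (adjusted p = 1.35e-09), SSA2 by 1.37 (adjusted p = 2.67e-08) and HSP12 by 1.10 (adjusted p = 2.9e-06). HSP26 rose by 0.85 (adjusted p = 2.46e-05) and HSP42 by 0.70 (adjusted p = 0.00174). HSP104 and HSP82 were at 0.29 and 0.27 and did not pass. Over all genes 58.3% of such windows rose and 10.6% fell, with a median of 0.54.

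**Figure D3:**
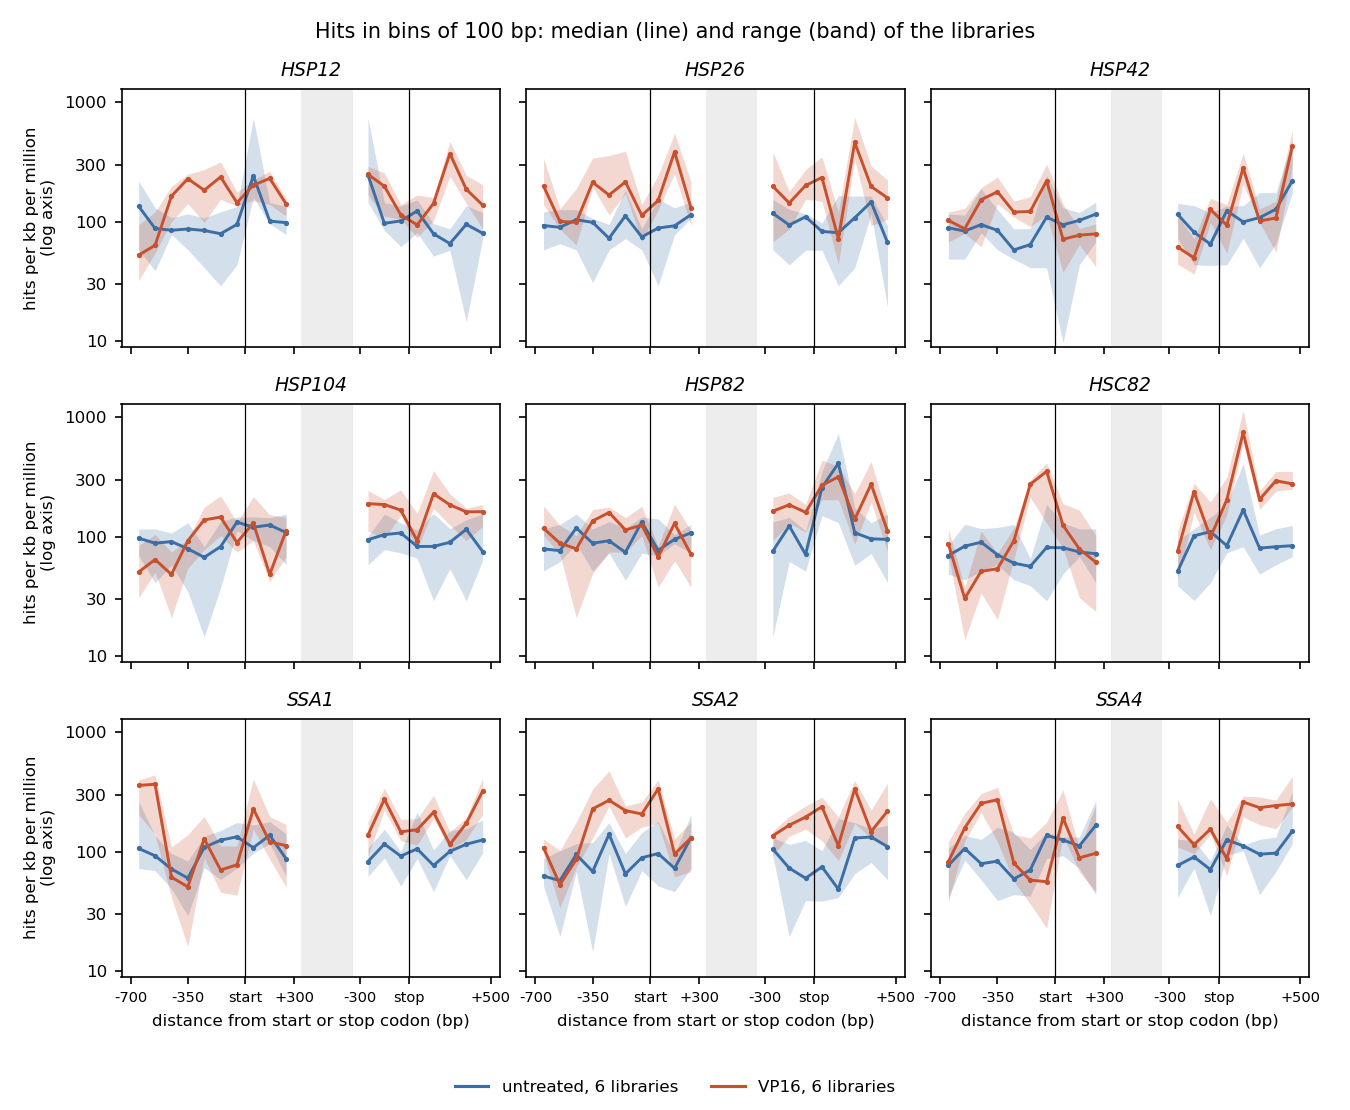
HpM per kb (log axis) in bins of 100 bp, from 700 bp upstream to 300 bp into the reading frame and from 300 bp before to 500 bp past the stop codon, with lines at the median and bands over the range of 6 untreated or 6 VP16 libraries. HSP12 is 330 bp long, so its start and stop segments overlap. HSC82 peaks on both sides of the gene with VP16, while SSA1 has a lower VP16 than untreated median just before the start codon.

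The ratio of upstream to reading frame hit density, taken within a library, needs no scaling between libraries. On the log2 scale HSP42 had -0.36, -0.10 and 0.22 when untreated and 0.76, 0.90 and 1.09 with VP16. It was the 1 gene of 9 whose VP16 ratios all lay above its untreated ones, compared with 41.0% of 5701 genes. SSA2 came close, with 0.19 to 0.57 with VP16 and its highest untreated ratio, 0.22, in pdr1 replicate 2. In HSP26, whose upstream window and frame both rose, the medians were -0.25 and -0.25.

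**Figure D4:**
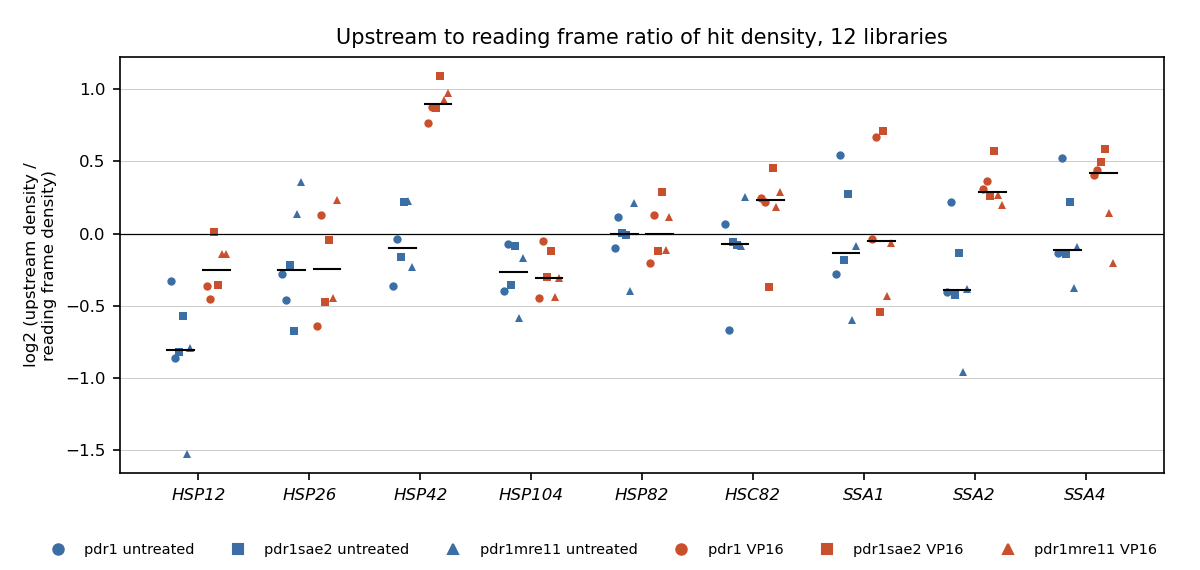
Log2 ratio of hits per base upstream to hits per base in the reading frame, 1 point per library, with symbols for strain, colours for treatment and a bar at the median of 6 libraries. HSP42 is the gene whose VP16 libraries (0.76 to 1.09) clear its untreated libraries (-0.36 to 0.22).

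Single cleavage sites were then examined. Top2 cuts the strands 4 bases apart, so a site is the pair of positions at the ends of those bases, with the hits of both strands summed. Hits on both strands were not required. Upstream of HSP104 and HSP82 no site was hit on both strands in all VP16 libraries. The other genes had only 1 to 3 such sites upstream, and they were not counted over all genes. Sites were ranked in the 3 VP16 replicate 1 libraries, and the strongest upstream site of each gene is shown on the coding strand, so that the bases beside the cuts can be compared. Capitals mark the 4 bases between the cuts, whose R64 position is in brackets.
HSP12 (chrVI:107055-107058): gtcaactttgaggTTCCggtcgtccccctc
HSP26 (chrII:381918-381921): ctgtttttaatccATTCacctttcattcta
HSP42 (chrIV:806527-806530): tttattctcatacATACggtcaagaagtat
HSP104 (chrXII:88364-88367): acaatcttaaacgTTCCataaggggccgcg
HSP82 (chrXVI:98828-98831): aagaaaaacacgcGCATggttttatgagcg
HSC82 (chrXIII:632261-632264): aagtgacatgaacACATgcattatattttt
SSA1 (chrI:142067-142070): accaactaaatatAGTGggtagataacctt
SSA2 (chrXII:97706-97709): ttttttctagaacATTCcatcgaagatttc
SSA4 (chrV:364283-364286): taggtttcaaagcGGATatcttttgcccgg
In 8 of these 9 sites C preceded at least 1 cut end, which reads as c just before the capitals or g just after them, and in HSP42, HSP82 and HSC82 it preceded both. HSP104 was the exception. Over the strongest sites of all 27 windows 24 had C before an end and 10 before both. Since C precedes many hits of the VP16 libraries used for ranking, this describes the sites chosen.

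The replicate 2 libraries took no part in the ranking. In them the strongest upstream site had higher HpM in all 3 VP16 libraries than in any untreated one in 9 of 9 genes, as did 9 of 9 frame sites and 8 of 9 sites past the stop codon. Sites chosen in the same way over all genes did so in 91.4% of upstream windows, 86.0% of frames and 86.0% of windows past the stop codon, so these counts lie near the background. Several of the sites rest on few hits. The lowest VP16 value was 2.04 HpM upstream of HSP104 and 1.86 upstream of HSP82, where the highest untreated value was 1.46. It was 1.24 in the HSP82 and HSC82 frames and past the HSP104 stop codon, and 1.86 in the HSP42 and SSA4 frames. In the shallowest library, untreated pdr1 replicate 2, a count of 0 allows up to 4.38. The HSC82 upstream site, at -94 bp, took 10.5 to 31.9% of its window with VP16 (8 to 90 hits) and 0 to 3.28% when untreated (0 to 4 hits). The SSA2 site, at -224 bp, held 10.2, 19.1 and 37.5 HpM with VP16 (lowest, median and highest of both replicates). It was also cut in every untreated library, at 2.92, 5.8 and 8.79. The SSA1 site, at -639 bp, held 8.38, 16.7 and 17 with VP16 and 0, 0.387 and 0.977 when untreated.

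**Figure D5:**
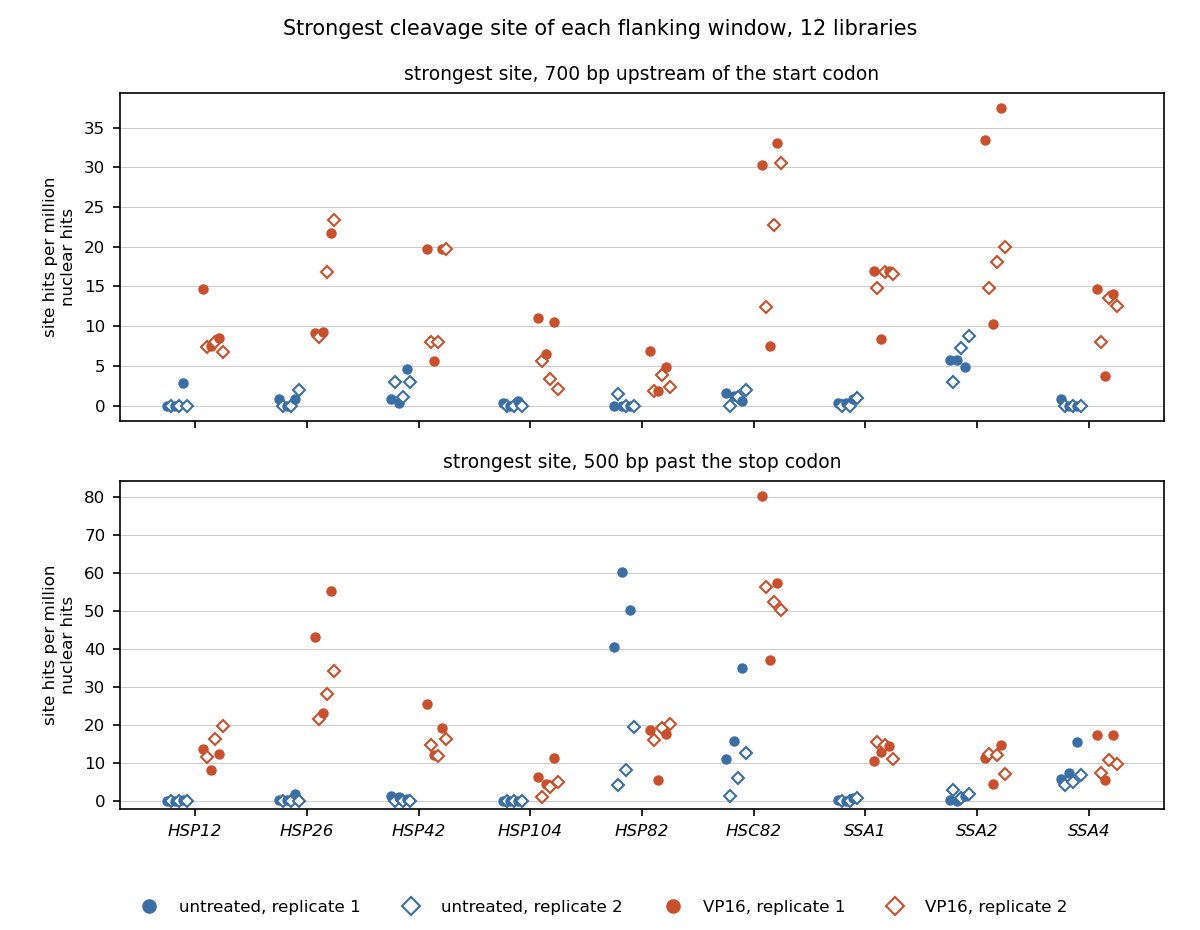
HpM at the strongest site upstream (top) and past the stop codon (bottom) of each gene, 1 point per library, filled for replicate 1, which chose the sites with VP16, and open for replicate 2. The sites past HSP12, HSP26 and SSA4 lie inside the neighbouring frames IES1, YBR072C-A and RTT105. At the site past HSP82 the untreated replicate 1 libraries (40.6 to 60.4) lie above all VP16 libraries (5.59 to 20.4).

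The strongest sites past the stop codons of the Hsp90 genes are shown because they behaved differently.
HSC82 (chrXIII:634594-634597): tgtaaacatgaacCATAgcacacaatttaa
HSP82 (chrXVI:96332-96335): ttccgacgcgtctAGTGtgtcatacaaaac
The HSC82 site, 122 bp past the stop codon and with C before both ends, held 37.3, 54.3 and 80.2 HpM with VP16 and 1.46, 12 and 34.9 when untreated, with no overlap. It took 22.5 to 34.9% of the window with VP16 and 2.78 to 48.8% when untreated. In replicate 2, which took no part in choosing it, the lowest VP16 value was 50.2 HpM and the highest untreated value 12.7. The HSP82 site, 161 bp past the stop codon, had C before neither end and was strongest in untreated replicate 1 libraries. These had 105 hits in pdr1, 156 in pdr1sae2 and 174 in pdr1mre11, or 39.5, 51.7 and 40.2% of the HSP82 window. The Wilson 95% interval in pdr1sae2 was 46 to 57.2%. Such intervals and limits cover counting error only. Untreated replicate 2 libraries had 3, 8 and 20 hits there. In untreated replicate 1 most of these hits were on the Crick strand (98, 144 and 146), and with VP16 most were on the Watson strand in all 6 libraries.

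A site in the HSP12 frame, 54 bp from the start codon, was likewise strong without the drug. It was found by ranking sites in the 3 untreated replicate 1 libraries, a ranking added after the data were seen. It held 36, 67 and 210 hits in untreated pdr1, pdr1sae2 and pdr1mre11 replicate 1, or 32.7, 40.9 and 59.7% of the HSP12 frame. In untreated replicate 2 it held 1, 8 and 18 hits, and with VP16 1 to 6. Ranked in this way, 9 of the 27 strongest sites had C before an end and 2 before both. Untreated replicate 1 libraries are also the deeper ones. Replicate and depth cannot be told apart in these counts, nor, without molecular identifiers, can separate ends from repeated copies of one.

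The 700 bp upstream were searched on both strands for a heat shock element core (3 alternating GAA and TTC units, each 2 bases from the next, starting with either), the stress response element CCCCT and the TATA box TATAAA. The core was in HSP42, HSP104, SSA1 and SSA2, or 4 of 9 genes, and in 1.95% of 5838 upstream windows. Only perfect matches were counted, so a gene without a match is not shown to lack a heat shock element. CCCCT was in 8 of 9 (all but SSA2, with 7 copies in HSP12) and in 44.4% of all. TATAAA was in 6 of 9 and in 69.3%. The cores nearest the start codon are shown with the 3 units and the bases between them in capitals, because cleavage sites lie in the SSA1 and SSA2 cores.
HSP42 (chrIV:806383-806395): gttctgGAAGGTTCGCGAAttgaga
HSP104 (chrXII:88326-88338): tttccaGAATTTTCTAGAAgggtta
SSA1 (chrI:141680-141692): ttctttTTCCAGAACGTTCcatcgg
SSA2 (chrXII:97706-97718): gtttttTTCTAGAACATTCcatcga
The SSA2 core runs from -233 to -221 relative to the start codon, and the 4 bases between the cuts of its strongest upstream site, which start at -224, are the last 4 bases of this core. The strongest site began 38 bp after the first base of the core in HSP104 and 144 bp after it in HSP42. In SSA1 the strongest site lay -378 bp from the first base of the core shown, but the site of rank 3, at chrI:141680-141683, falls on the last 4 bases of that core, as in SSA2. That SSA1 site held 3 to 20 hits in the 6 VP16 libraries and 0 to 7 in the untreated ones. A match of letters does not show that a factor was bound.

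Strains were compared to learn whether loss of Sae2 or Mre11, which act in removing Top2 from DNA ends, moved hits between windows. With VP16, none of the 27 windows was called by edgeR between pdr1sae2 and pdr1 (0% of all windows), and none had an unadjusted p under 0.05 (365 of all windows). For pdr1mre11 none was called (0.00581% of all windows, a single one), and 7 had an unadjusted p under 0.05 (1338, or 7.77%, of all windows). All 7 were higher in pdr1mre11, and 3 of them belonged to HSP26. HSP26 upstream had 217 and 261 in pdr1mre11 and 133 and 142 in pdr1, a log2 difference of 0.81 ± 0.18 (adjusted p = 0.296).

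The response to VP16 was not called different from that of pdr1 in any of the 27 windows, in pdr1sae2 (0% of all windows called) or in pdr1mre11 (0%). At an unadjusted p under 0.05 there were 0 and 2 of the 27, and 186 and 518 of all windows. The HSP26 frame response was 0.78 higher in pdr1mre11 on the log2 scale (approximate 95% interval 0.17 to 1.38), and that of HSP42 past the stop codon differed by -0.66 (-1.22 to -0.10). A response that misses the test is not shown to be alike between strains. Within single strains 15 of the 27 windows were called in pdr1 (37.0% of all), 13 in pdr1sae2 (30.8%) and 16 in pdr1mre11 (46.1%). These counts rest on 2 libraries a group and ran from 8 to 17, 6 to 13 and 13 to 17 when each library was left out in turn. That in pdr1 was 8 without its VP16 replicate 1 and 10 without its untreated replicate 1, and that in pdr1sae2 was 6 without its untreated replicate 1 and 8 without its VP16 replicate 1. With all libraries, the called windows were higher with VP16 except the HSP42 frame in pdr1sae2 (-0.56 ± 0.21, adjusted p = 0.0416). HSC82 past the stop codon changed by 1.86 ± 0.21 in pdr1, 1.51 ± 0.21 in pdr1sae2 and 1.49 ± 0.20 in pdr1mre11.

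Multiplied by the deposited spike-in factor of its group, the level of every one of the 27 windows had a higher median with VP16, from 1.58 times in the HSP42 frame to 7.42 times past the HSC82 stop codon. These levels are given without a test. The factors were 2.19 to 7.69 in the VP16 groups and 1.36 to 1.69 in the untreated ones. With them as the scale, edgeR called 5734 of 5787 upstream windows of all genes higher. It called 5357 of 5700 frames and 5548 of 5732 windows past the stop codon higher. A rise in all 27 windows therefore lies near the background. Calibrated levels past the HSC82 stop codon were 145 and 143 in untreated pdr1 and 1025 and 707 with VP16. They were 172 and 180.0 against 1204 and 1252 in pdr1sae2, and 242 and 159 against 2900.2 and 2551 in pdr1mre11. Upstream of HSP104, whose share of hits was not called, they were 104 and 122 against 193 and 201 in pdr1, and 145 and 168 against 823 and 782 in pdr1mre11.

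Other chaperone and stress genes were taken from 5 lists with 60 genes, 58 of them outside chromosome III. Positions shared with other sequences are not given for these genes, so exchanged reads may affect their counts. Upstream windows rose in 44 and fell in 4, reading frames rose in 20 and fell in 14, and windows past the stop codon rose in 47 and fell in 3. Over all genes the shares that rose and fell were 57.4 and 10.4% upstream, 13.7 and 53.9% in the frame and 44.1 and 18.9% past the stop codon, and the counts of each list below are to be read against these. The median log2 changes were 0.46, 0.05 and 0.58. Among 17 further genes of the Hsp70 system, 11 rose upstream, 4 in the frame and 14 past the stop codon, and 3, 7 and 0 fell. SSB2, a ribosome-associated Hsp70, rose most, past the stop codon (1.62 ± 0.11, adjusted p = 3.34e-12). SSA3, a stress-induced relative of SSA4, had 72.2, 85.9 and 96.4 HpM per kb in its frame when untreated and 34.1, 46.3 and 54.4 with VP16, without overlap (-0.92 ± 0.10, adjusted p = 1.22e-08).

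Of 11 Hsp90 co-chaperone genes 9 rose upstream, 3 in the frame and 6 past the stop codon, and 1, 1 and 2 fell. STI1, which links Hsp70 to Hsp90, rose most (1.06 ± 0.12, adjusted p = 1.53e-08) and CPR7, a cyclophilin gene, fell most (-0.69 ± 0.17, adjusted p = 0.000855), both past the stop codon. Of 9 other heat-inducible genes 6, 5 and 8 rose in the same windows and 0, 1 and 1 fell. The mitochondrial chaperonin gene HSP60 rose most, past the stop codon (1.30 ± 0.11, adjusted p = 2.59e-10), and the polyubiquitin gene UBI4 fell most, in the frame (-0.40 ± 0.10, adjusted p = 0.000949). Of 18 general stress genes 15, 8 and 17 rose and 0, 2 and 0 fell. TSL1, of trehalose synthesis, rose most, past the stop codon (1.47 ± 0.10, adjusted p = 7.02e-12), and ALD3, an aldehyde dehydrogenase gene, fell most, in the frame (-0.54 ± 0.11, adjusted p = 0.000167).

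The regulators HSF1, MSN2 and MSN4 rose upstream in 3 of 3 and past the stop codon in 2, and fell in the frame in 3. HSF1 upstream had 89.3, 102 and 120.4 HpM per kb when untreated and 159, 196 and 244 with VP16 (0.87 ± 0.11, adjusted p = 1.32e-07). The MSN2 frame had 76.9, 79.6 and 80.9 when untreated and 40.8, 45.1 and 61.2 with VP16 (-0.79 ± 0.10, adjusted p = 9.71e-08). Neither pair of groups overlapped.

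For each of the 9 genes, the gene outside the set whose upstream window varied most alike over the 12 libraries was found by Pearson correlation of log2(HpM + 1), as a description. These were MID1 for HSP12 (r = 0.971), NCW1 for HSP26 (0.989), YML020W for HSP42 (0.978), FMP48 for HSP104 (0.849) and CAF40 for HSP82 (0.948). For HSC82 it was NUP2 (0.980), for SSA1 COQ9 (0.931), for SSA2 CLB5 (0.989) and for SSA4 CUP1-1 (0.980). The libraries share the treatment difference, and each value is the highest over all genes compared. Positions that these genes share with other sequences are not given.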

How the data were processed

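Protein-linked 5′ ends were mapped by CC-seq in 12 libraries, 3 strains with or without VP16 and 2 replicates each. The authors aligned paired reads with bowtie2 (version not given in the sources used here) to a Cer3 genome to which they had added marker insertions. They kept reads with several equal placements, removed repeats and ribosomal DNA, and deposited counts of hits per nucleotide and strand. The deposited spike-in factor of each group is a ratio derived from human DNA and is the same for both replicates. The 6 pooled maps were not used. No molecular identifiers were counted.

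Hits were summed in windows of all protein-coding genes outside chromosome III, which carries the marker insertions of that reference and was not analysed here. Windows were fitted in edgeR 4.0.16 (R 4.3.3, quasi-likelihood test, filterByExpr, TMM factors from non-overlapping regions), with strain as a term or 6 group means, and p-values adjusted by Benjamini-Hochberg over all windows. These p-values set each change against the spread left between libraries by the fit, which treats libraries as independent. Same-numbered replicates deviated together within a treatment, so the p-values may be too small. DESeq2 1.42.0 was an alternative, beside other scalings, filters, windows, counting rules, a replicate block and leaving out each library. On simulated counts for VP16 against untreated (17223 windows) 87% of changes of 1.5-fold and 99% of 2-fold were recovered. Only 100 windows were changed at each fold. The simulated spread followed the mean level alone, without strain effects or replicates that deviate together, so the rates may differ in the data. The ratio per library had 0.5 hits added to both counts.

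The 9 genes and all lists were chosen with earlier results of these data known. Named were the 9 genes, neighbours inside their windows, the most alike gene of each, and the largest rise and fall past the threshold in each further list. Gene coordinates, sequences and motifs came from the R64 genome and annotation.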

Additional observations from a re-analysis of the deposited data

Results flagged for a closer look

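Each of the 27 windows was examined for a library far from the other 5 of its treatment, by the gap to its nearest neighbour over the whole range, in 54 sets of 6 libraries. Chance alone sets apart about 1 in 20 such sets, and 6 were found. The 6 libraries of a treatment come from 3 strains.

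Among untreated libraries, HSP82 upstream was highest in pdr1mre11 replicate 2, at 121 HpM per kb (87 hits). HSC82 upstream was lowest in pdr1 replicate 2, at 60.5 (29 hits), and SSA2 upstream was highest in the same library, at 100.1 (48 hits), which is the shallowest of the 12. The SSA2 reading frame was highest in untreated pdr1mre11 replicate 1, at 159.8 (1063 hits), and SSA4 past the stop codon in the same library, at 164 (284 hits), which is the deepest. With VP16, HSC82 past the stop codon was highest in pdr1 replicate 1, at 468 (511 hits).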

How the results depend on the processing

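Of the 9 upstream windows, 5 rose and 2 fell when the window was 200 bp, and 1 of 1 tested rose with at least 50 hits required in every library, where no window past the stop codon was tested. SSA1 upstream reversed to -0.78 at 200 bp, and SSA4 upstream to -0.68 at 200 bp. At 400 bp SSA1 upstream was at -0.28, which edgeR did not call (adjusted p = 0.112). Reading frames that rose numbered 3 with TMM factors from the windows and 3 in the DESeq2 Wald test, against 5. Counting each position once left 0 frames lower and 0 genes with separated upstream to frame ratios. The HSP42 frame went to 1.05 on the spike-in scale, where the median frame was at 1.13. Leaving out each library in turn gave 7 to 8 upstream windows higher and 0 to 0 lower, 3 to 6 frames higher and 1 to 1 lower, and 8 to 9 windows past the stop codon higher and 0 to 0 lower. The 3 frames higher came without pdr1 or pdr1sae2 with VP16 replicate 1 or untreated pdr1mre11 replicate 2. Windows called within strains ranged from 8 to 17 in pdr1, 6 to 13 in pdr1sae2 and 13 to 17 in pdr1mre11, and from 0 to 0 between strains. Same-numbered replicates deviated together within a treatment (correlations 0.11 to 0.48) but not always between treatments (down to -0.24), and were not treated as pairs. With a replicate block, 8 upstream windows, 6 frames and 8 windows past the stop codon rose, the added frame being HSP82 (0.22, adjusted p = 0.0171). At the shallowest library 1 hit is a large part of a site's count, which limits single sites more than windows.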
